A study of Mus musculus with 16 samples.

Results

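The values compared here are the human miRNAs in the culture supernatant of HCT116 cells 72 h after 6 Gy of X-rays, set against those 72 h after 2 Gy. HCT116 is a human colorectal carcinoma line with wild-type p53. The members were all human probes of an Agilent single-colour miRNA array that are no controls, on the 4 arrays labelled 6 Gy and the 4 labelled 2 Gy, out of 16 arrays in all. Of 1205 human miRNAs on the array (3101 probes), 283 (592 probes) were detected well enough to test. For these, some probe was detected on every one of the 4 arrays of at least 1 dose, 0 and 10 Gy included. Cells of both groups received X-rays at a high dose rate, stood in RPMI1640 medium with 10% fetal bovine serum, and gave supernatant RNA by ISOGEN extraction, of which 100 ng was labelled with Cy3. The other 8 arrays, at 0 and 10 Gy, were handled the same way and served here to estimate the spread. They also entered the detection filter, the scaling and the floor. With the 8 arrays at 2 and 6 Gy alone, 264 miRNAs were tested. Serum brings small RNA of its own, and no array of medium alone was used here. The labels name the organism as mouse, and the design text calls the line murine, but HCT116 came from a human tumour and the probes are for human miRNAs. That text speaks of 4 separate cultures per dose but lists 0, 6 and 10 Gy, so for the 2 Gy samples, grouped by their own labels, p-values measure the spread between samples that may not be separate cultures. The 2 Gy arrays lay on slide 1 with the 0 Gy arrays, and the 6 Gy arrays on slide 2 with the 10 Gy arrays. Dose and slide therefore cannot be told apart in any difference between 6 and 2 Gy given below. The position on the slide cannot be told apart from dose either, because the 6 Gy arrays held the slide columns 1 and 2 and the 2 Gy arrays the columns 3 and 4.

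A mature miRNA is a short RNA that loads into Argonaute and pairs, mainly through its seed, with messenger RNAs that it represses. Cells release miRNAs in vesicles, bound to Argonaute, or by leakage when they die, and those outside the cell are studied as readouts of exposure to radiation. In epithelial tumour cells the let-7 family restrains growth genes such as RAS and MYC, the miR-200 family holds ZEB1 and ZEB2 down and keeps the epithelial state, and the miR-17-92 cluster promotes the cell cycle. Ionising radiation activates p53, which transcribes miR-34a.

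The following 7 mature sequences are shown because they belong to the families with the largest differences (let-7 and miR-200) and to the miR-17 family, whose 2 tested members share a seed. They are RefSeq sequences of the mouse miRNAs of the same names (GRCm38.p6), since the human sequences were not used here. These families are conserved between mouse and human. Each runs 5′ to 3′ with the seed, bases 2 to 8, in capitals.
let-7b-5p: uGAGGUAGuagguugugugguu
let-7c-5p: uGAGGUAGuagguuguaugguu
let-7i-5p: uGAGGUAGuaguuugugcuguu
miR-141-3p: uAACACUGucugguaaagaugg
miR-200c-3p: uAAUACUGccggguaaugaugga
miR-17-5p: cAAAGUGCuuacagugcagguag
miR-93-5p: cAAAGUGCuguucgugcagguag
The 3 let-7 members have the same seed, and let-7b-5p differs from let-7c-5p at 1 base and from let-7i-5p at 3 bases. The seeds of miR-141-3p and miR-200c-3p differ at 1 base. miR-17-5p and miR-93-5p have the same seed and differ at 4 bases outside it. In the mouse genome let-7c and let-7b lie side by side (mature strands at chr15:85706616-85706637 and chr15:85707325-85707346, plus strand), as do miR-200c and miR-141 (chr6:124718324-124718346 and chr6:124717917-124717938, minus strand). Of the 283 tested miRNAs, 89 had a mouse mature miRNA of the same name, and 21 of them fell into 9 groups with a shared seed.

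Taken array by array, the doses overlapped in their amounts of signal. Since 100 ng of RNA was labelled each time, these amounts do not measure how much RNA was released. Human miRNAs were detected in numbers of 305, 348, 262 and 287 in cultures 1 to 4 at 2 Gy and of 299, 328, 259 and 300 at 6 Gy. The means were 300.5 ± 36.2 and 296.5 ± 28.4 (SD, n = 4 each; exact two-sided permutation test, p = 0.829). The unscaled signal level, the log2 of the 75th percentile over the 518 probes detected on all arrays, was 8.95 ± 0.35 at 2 Gy and 9.09 ± 0.44 at 6 Gy (SD, n = 4 each; exact p = 0.657). RNA added by the kit at the labelling step (the labelling spike-in) read 2.51, 6.76, 5.99 and 4.82 on the log2 scale in cultures 1 to 4 at 2 Gy. At 6 Gy it read 4.16, 5.55, 5.52 and 0. Signals under 1 were set to 1 before the log, so this 0 is a lower limit, and it enters the mean and test below. The spike-in lay outside the software's range on all 8 arrays, and on culture 4 at 6 Gy both labelling spike-ins were undetected. On culture 1 at 2 Gy and on culture 1 at 6 Gy, 1 of them was undetected. The means, 5.02 ± 1.85 and 3.81 ± 2.62, did not pass the test (exact two-sided permutation p = 0.514), and neither did those of the hybridisation spike-in, 13.16 ± 0.03 and 13.32 ± 0.33 (exact p = 0.343). Values set to the floor numbered 13.75 ± 5.91 per array at 2 Gy and 21 ± 16.4 at 6 Gy (exact p = 0.486), with 40 on culture 4 at 6 Gy. The smallest p that the 70 regroupings of 4 against 4 allow is 0.0286, and the smallest after Benjamini-Hochberg adjustment over the 5 measures was 0.821. For many miRNAs named below, culture 2 at 2 Gy was the highest of its dose and culture 4 at 6 Gy the lowest of its own. For some of these, culture 4 shared the floor with other cultures at 6 Gy. For the lists and miRNAs that moved most with them, values without 1 or both are given as well.

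**Figure D1:**
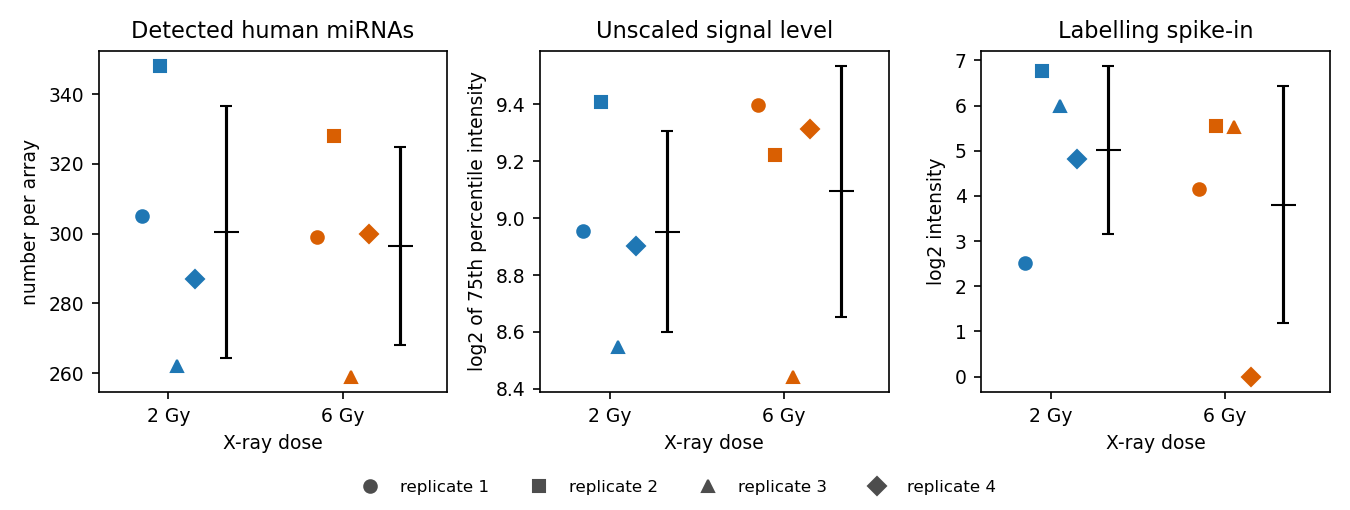
Detected human miRNAs per array, the log2 of the unscaled 75th percentile intensity and the log2 labelling spike-in intensity, by dose, with 1 marker per array, and with the mean and SD (n = 4) as a bar to its right. The doses overlap in all 3 measures, and the labelling spike-in of culture 4 at 6 Gy is at its lower limit of 0.

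No miRNA differed between 6 and 2 Gy after adjustment. With limma on all 16 arrays and a Benjamini-Hochberg threshold of 0.05, 0 of 283 miRNAs passed (0% of those tested), and the smallest adjusted p was 0.311. At an unadjusted p under 0.05 there were 14 (4.95%), of which 9 were higher at 6 Gy (3.18%) and 5 lower (1.77%). Differences lay evenly on both sides, 142 above 0 and 141 below (49.8%), with a median of 0.00098 on the log2 scale. All levels and differences below are on the log2 scale of scaled signal, where a difference of 1 is a doubling, and scaling removes any shift shared by all miRNAs. The difference was 0.5 or less in size for 271 miRNAs, over 0.5 for 12 and over 1 for 1, miR-141-3p. Without scaling between arrays, the median difference was 0.14.

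These intervals say how large a difference the 8 arrays could have missed. The 95% interval of the difference lay wholly within 1 on either side of 0 for 238 of the 283 miRNAs (84.1%) and wholly within 0.5 for 145 (51.2%). For the other 45 it reached beyond 1, so differences of that size lay inside it. The interval's reach on either side of the estimate had a median of 0.34 and ran from 0.13 to 2.47. The narrowest intervals were those of miR-3917 (difference 0.01, from -0.12 to 0.14), miR-3648 (-0.03, from -0.18 to 0.11), miR-3621 (-0.07, from -0.22 to 0.09), miR-1268a (-0.01, from -0.17 to 0.15) and miR-874-3p (0.22, from 0.06 to 0.38). miR-4281, with the highest signal, read 7.22 ± 0.40 at 2 Gy and 7.28 ± 0.26 at 6 Gy (SD, n = 4 each). The others of the 5 with the highest signal differed by 0.03 (miR-1202), 0.06 (miR-1207-5p), 0.03 (miR-1225-5p) and 0.00 (miR-762), with signs that turned for miR-762 and miR-1202 under another scaling. The difference of miR-4281 was 0.06 and turned to -0.13 without culture 2 at 2 Gy. Of the 283 miRNAs, 229 were detected on all 8 arrays, and 0 were detected on all 4 arrays of 1 dose and on none of the other. The SD over cultures was larger at 6 Gy for 174 miRNAs and at 2 Gy for 109, with medians of 0.21 and 0.18.

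**Figure D2:**
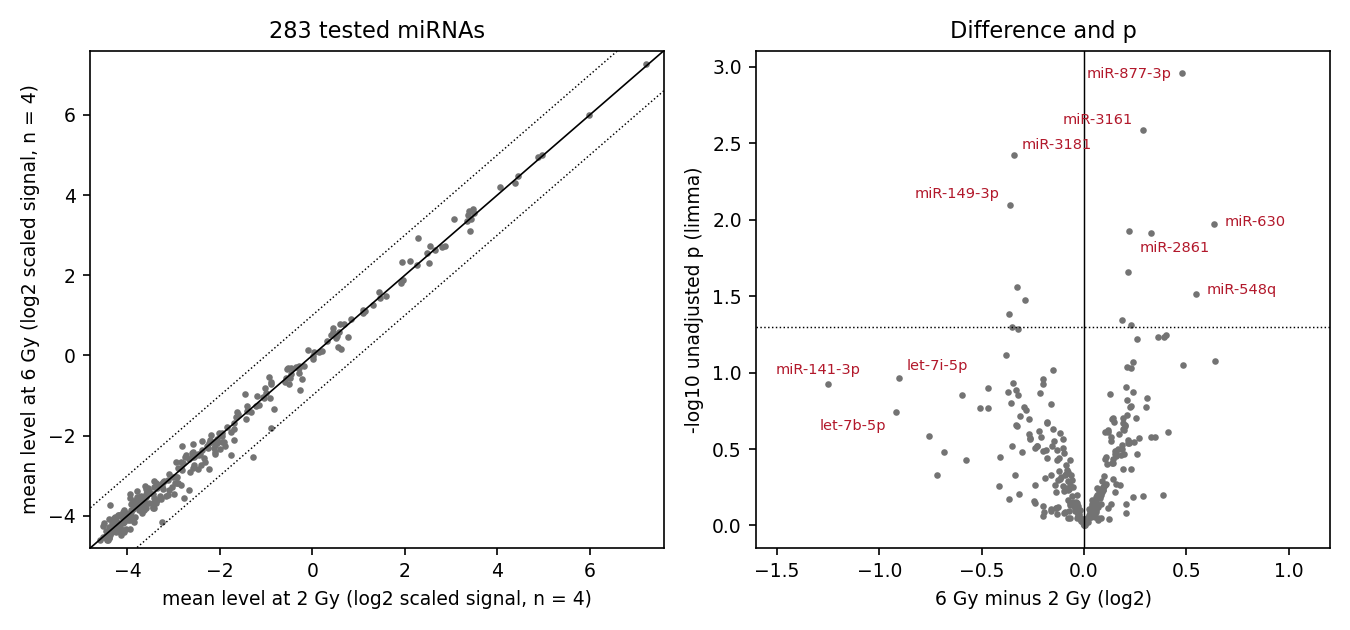
Left, mean log2 level at 6 Gy against that at 2 Gy (n = 4 each) for the 283 tested miRNAs, with the line of equality (solid) and a difference of 1 (dotted). Right, the difference 6 Gy minus 2 Gy against -log10 of the unadjusted limma p, with the dotted line at 0.05. The points follow the line of equality on the left, and 14 lie above the dotted line on the right.

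The let-7 family, which represses growth genes and is abundant in differentiated epithelium, had 3 tested 5p members of 9 on the array. All 3 differences lay below 0, with a median of -0.90 against 0.00098 over all tested miRNAs, and 0 of the 3 passed the test. The list held 5p arms only. Outside it, the tested arms let-7b-3p (0.05), let-7d-3p (0.23) and let-7f-1-3p (0.09) had differences above 0. let-7b-5p read -1.27, 0.38, -1.40 and -1.25 in cultures 1 to 4 at 2 Gy and -2.30, -0.29, -1.62 and -3.01 at 6 Gy. Culture 2 was the highest at both doses, culture 4 at 6 Gy was the lowest of the 8, and the groups overlapped. The difference was -0.92 ± 0.65 (SE), with an interval from -2.31 to 0.48 (limma, adjusted p = 0.839). let-7i-5p read -3.53, -2.08, -3.61 and -3.76 at 2 Gy, and -4.60, -2.93, -4.47 and -4.60 at 6 Gy, where -4.60 is the floor. Cultures 1, 3 and 4 at 6 Gy lay below all 4 values at 2 Gy, culture 2 lay among them, and the difference was -0.90 ± 0.53 (from -2.04 to 0.23, adjusted p = 0.839). let-7c-5p gave -3.14, -1.25, -3.27 and -3.04 at 2 Gy and -3.83, -1.73, -3.28 and -4.60 at 6 Gy, a difference of -0.69 ± 0.68 (from -2.14 to 0.77, adjusted p = 0.839). Since 2 of the 4 values of let-7i-5p and 1 of let-7c-5p at 6 Gy lay at the floor, where values have no order, these differences are understated in size.

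The size of the let-7 difference moved with single arrays. With 1 array left out, let-7b-5p ran from -1.42 to -0.50, let-7c-5p from -1.22 to -0.21 and let-7i-5p from -1.29 to -0.50. Without culture 2 at 2 Gy the median of the 3 members was -0.50, without culture 4 at 6 Gy -0.52, and without culture 2 at 6 Gy -1.29. Without culture 2 at 2 Gy and culture 4 at 6 Gy together it was -0.09, a setting chosen after the data were seen. The labelling spike-in was the highest of the 8 arrays (6.76) on culture 2 at 2 Gy and the lowest (0, its lower limit) on culture 4 at 6 Gy. With this spike-in added to the fit as a covariate, the difference of let-7b-5p was -0.55 and that of let-7i-5p -0.66. The sign of all 3 members stayed below 0 with no scaling, with scaling over all probes and with quantile normalization. Over the 35 alternatives described at the end, the sign of let-7c-5p turned in 2, and those of let-7b-5p and let-7i-5p in 0.

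Of the miR-200 family, which sustains the epithelial state, miR-141-3p and miR-200c-3p were tested of 5 on the array. miR-141-3p had the largest difference of all 283 miRNAs. It read -1.23, 0.28, -2.14 and -2.03 at 2 Gy and -2.15, -1.17, -2.18 and -4.60 at 6 Gy. The value of culture 2 at 2 Gy was the highest and that of culture 4 at 6 Gy lay at the floor, and the other 6 lay between -2.18 and -1.17. The difference was -1.25 ± 0.75 (SE), a ratio of 0.421 with a 95% interval from 0.138 to 1.29, and it did not pass the test (limma, adjusted p = 0.839). It was -0.72 without culture 2 at 2 Gy, -0.56 without culture 4 at 6 Gy and -0.03 without both. miR-200c-3p, made from the same primary transcript as miR-141-3p, read -3.82, -1.22, -3.81 and -3.66 at 2 Gy and -4.60, -1.91, -2.86 and -4.60 at 6 Gy. Its groups overlapped, the difference was -0.37 ± 0.85, and it turned to 0.28 without culture 2 at 2 Gy and to 0.67 without both.

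These miR-200 members with miR-21-5p and miR-31-5p were the tested ones of 10 miRNAs that mark colon epithelium or HCT116 cells, and 0 of these 4 passed the test. The mean level of the 4 ranged over arrays from -3.79 to -1.46 at 2 Gy and from -4.60 to -2.70 at 6 Gy, so it lay at the floor on 1 array at 6 Gy. The other 6 (miR-200a-3p, miR-200b-3p, miR-429, miR-192-5p, miR-194-5p and miR-215-5p) were not detected in enough arrays to be tested. miR-21-5p, raised in many carcinomas, was detected on 1 array of the 2 Gy group and 2 of the 6 Gy group. It lay at the floor in cultures 1, 3 and 4 at 2 Gy and read -2.64 in culture 2. At 6 Gy it lay at the floor in cultures 1 and 4 and read -3.92 and -3.04 in cultures 2 and 3. Its difference was 0.07 ± 0.66, turned to -0.12 without scaling, and was 0.55 without culture 2 at 2 Gy and -0.27 without culture 3 at 6 Gy. miR-31-5p lay at the floor on 3 arrays at 2 Gy and on 2 at 6 Gy, with a difference of -0.32 ± 0.63 that turned to 0.25 without culture 2 at 2 Gy. The median of the 4 turned from -0.34 to 0.27 without that array.

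**Figure D3:**
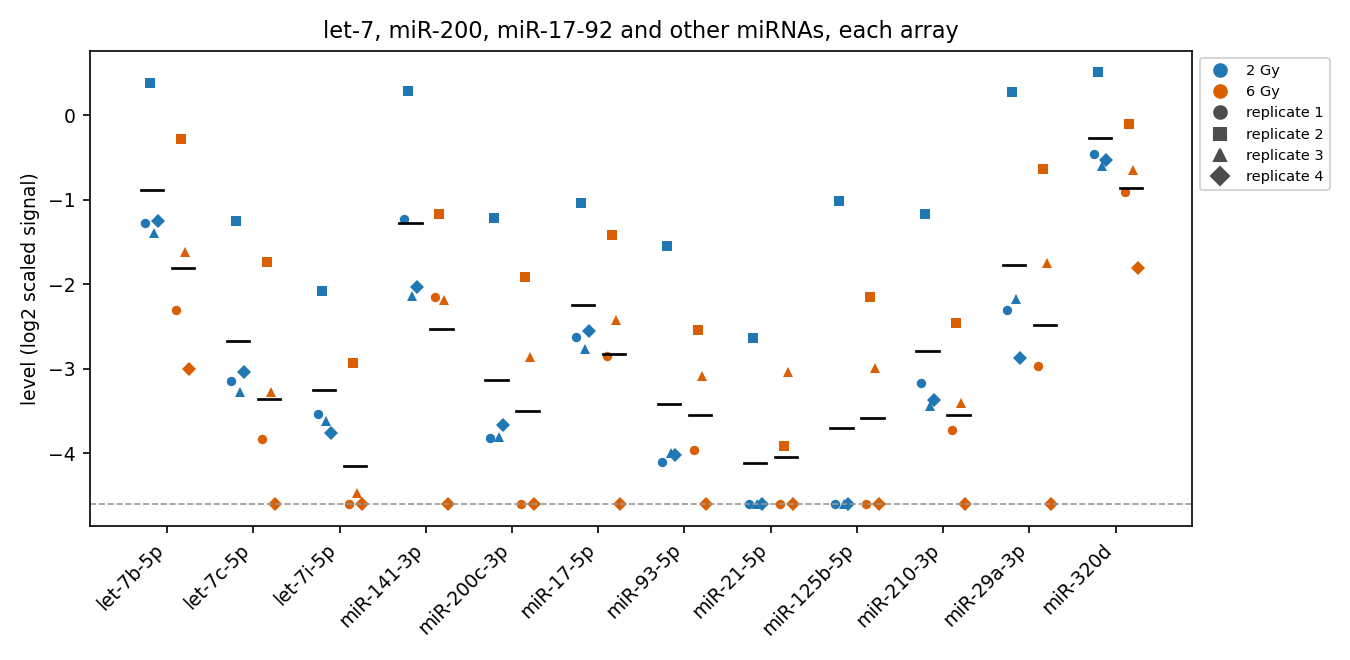
Log2 scaled level of 12 miRNAs of the let-7, miR-200, miR-17 and other families on each array at 2 Gy (blue) and 6 Gy (orange), by replicate (marker), with the mean of 4 as a bar and the floor of -4.60 as a dashed line. Squares (culture 2) are the highest at 2 Gy for all 12, and the 6 Gy diamond (culture 4) is the lowest of its dose or lies at the floor for all 12.

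The miR-17-92 cluster and its paralogs, which promote proliferation and are amplified or raised in colorectal carcinoma, had 5 tested members of 13 on the array. 3 differences lay above 0 and 2 below, with a median of 0.01, and 0 passed the test. miR-17-5p read -2.62, -1.04, -2.76 and -2.55 at 2 Gy and -2.85, -1.42, -2.43 and -4.60 at 6 Gy. At 6 Gy cultures 2 and 3 lay within the 2 Gy range, culture 1 just below it and culture 4 at the floor, and the difference was -0.58 ± 0.63. It was -0.18 without culture 2 at 2 Gy, 0.02 without culture 4 at 6 Gy and 0.40 without both. miR-93-5p, with the same seed, read -4.11, -1.55, -3.99 and -4.01 at 2 Gy and -3.96, -2.54, -3.08 and -4.60 at 6 Gy, a difference of -0.13 ± 0.64 that turned to 0.49 without culture 2 at 2 Gy. miR-92a-3p, detected on all 8 arrays, read -0.53, 0.50, -0.78 and -0.63 at 2 Gy. At 6 Gy it read -0.03, 0.67 and 0.06 in cultures 1 to 3, all higher than in 3 of the 4 cultures at 2 Gy, and -1.87 in culture 4. Its difference was 0.07 ± 0.48, rose to 0.59 without culture 4 at 6 Gy and turned to -0.25 without culture 2 at 6 Gy. That of miR-25-3p, which shares its seed, was 0.20 ± 0.93, with -0.15 without culture 2 at 6 Gy. Without culture 2 at 2 Gy and culture 4 at 6 Gy together, the median of the cluster was 0.82.

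The clusters of miR-23/27/24 and of miR-221 with miR-222, expressed in most adherent cells, had 6 tested members of 7. Their differences lay above 0 for 3 and below for 3, with a median of -0.01 that turned to 0.02 without scaling and 0.01 with quantile normalization, and 0 passed. miR-222-3p, which represses the cell cycle inhibitor p27, was detected on all 8 arrays. It read -3.52, -1.37, -3.50 and -3.44 at 2 Gy and -2.62, -1.77, -2.06 and -4.22 at 6 Gy, a difference of 0.29 ± 0.61 that was 0.81 without culture 2 at 2 Gy, likewise without culture 4 at 6 Gy, and -0.01 without culture 2 at 6 Gy. Cultures 1 to 3 at 6 Gy exceeded every 2 Gy value but that of culture 2. miR-221-3p, its cluster partner with the same seed, had a difference of 0.24 ± 0.52 (0.55 without culture 2 at 2 Gy) and lay at the floor on 3 arrays at 2 Gy. miR-27a-3p had a difference of -0.24 ± 0.65, which turned to 0.24 without the same array. miR-24-3p, which lowers the repair factor H2AX, read -0.57 in culture 2 at 2 Gy and lay at the floor in the other 3, and its interval was the widest of all, from -2.67 to 2.27 around -0.20 (0.79 without culture 2 at 2 Gy). The median of the 6 was 0.51 without culture 2 at 2 Gy and 0.85 without culture 4 at 6 Gy as well.

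In the miR-29 and miR-30 families, 3 of 8 listed arms were tested, all with differences below 0 and a median of -0.47, and 0 passed. Outside the list, miR-30c-1-3p (0.26) and miR-30c-2-3p (-0.20) were tested too. miR-29a-3p, which represses collagens and DNA methyltransferases, read -2.31, 0.27, -2.18 and -2.87 at 2 Gy and -2.96, -0.63, -1.74 and -4.60 at 6 Gy. The difference was -0.72 ± 0.96, and it was -0.03 without culture 2 at 2 Gy and -0.01 without culture 4 at 6 Gy. miR-30d-5p, detected on all 8 arrays, read 0.58, 1.11, 0.37 and 0.45 at 2 Gy and read 0.38, 0.88, 0.37 and -0.98 at 6 Gy. Only culture 4 at 6 Gy lay apart, and the difference was -0.47 ± 0.32 with it and -0.09 without it. miR-30e-5p lay at the floor on all 4 arrays at 6 Gy and on 3 at 2 Gy. Without culture 2 at 2 Gy and culture 4 at 6 Gy the median of the 3 turned to 0.07.

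In the miR-125, miR-100 and miR-99 group both tested members of the 5 listed arms had differences above 0, and 0 passed. miR-125a-3p, tested outside the list, differed by 0.23. miR-125b-5p, which targets p53, lay at the floor in 3 cultures at 2 Gy and read -1.01 in culture 2, and read -2.14 and -2.99 in cultures 2 and 3 at 6 Gy with the other 2 at the floor. Its difference was 0.12 ± 1.06, and -0.02 without scaling. miR-100-5p, which targets mTOR and ATM, read -1.96 in culture 2 at 2 Gy with the others at the floor. At 6 Gy it read -4.49, -2.55, -2.58 and -4.60, a difference of 0.38 ± 0.79 (from -1.32 to 2.08). Both were detected on 1 array at 2 Gy and on 3 at 6 Gy. Their median was 1.02 without culture 2 at 2 Gy, -0.16 without culture 2 at 6 Gy and -1.29 with no floor.

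Among miRNAs tied to colorectal carcinoma, 4 of 10 were tested and 0 passed. Besides miR-21-5p and miR-31-5p these were miR-183-5p (difference -0.16 ± 0.56), an oncogenic miRNA of epithelial tumours, and miR-145-5p (0.13 ± 0.36), which is lost in colon tumours. The difference of miR-183-5p turned to 0.31 without culture 2 at 2 Gy, and that of miR-145-5p was 0.48 without culture 4 at 6 Gy and -0.05 without culture 2 at 6 Gy. The median of the 4 was -0.05, with 0.31 without culture 2 at 2 Gy and -0.28 without culture 2 at 6 Gy. Of 9 p53-responsive miRNAs only miR-34a-5p could be tested. miR-34a-5p read -4.38, -1.86, -4.45 and -4.60 at 2 Gy and -4.60, -2.49, -4.40 and -4.60 at 6 Gy. It was near or at the floor in all but culture 2 at each dose, and the difference was -0.20 ± 0.82 (from -1.96 to 1.57, limma adjusted p = 0.961). It turned to 0.46 without culture 2 at 2 Gy and was -0.70 without culture 2 at 6 Gy. Of 9 DNA repair and hypoxia miRNAs, 4 were tested, with 2 above 0, 2 below and 0 past the test. miR-210-3p, induced by hypoxia through HIF1A, read -3.17, -1.17, -3.44 and -3.37 at 2 Gy and -3.72, -2.46, -3.40 and -4.60 at 6 Gy. Culture 2 was the highest at both doses, the groups overlapped, and the difference was -0.76 ± 0.65 (from -2.14 to 0.62). It was -0.21 without culture 2 at 2 Gy, -0.41 without culture 4 at 6 Gy and 0.14 without both. The median of the 4 repair and hypoxia miRNAs turned from -0.04 to 0.43 without culture 2 at 2 Gy.

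**Figure D4:**
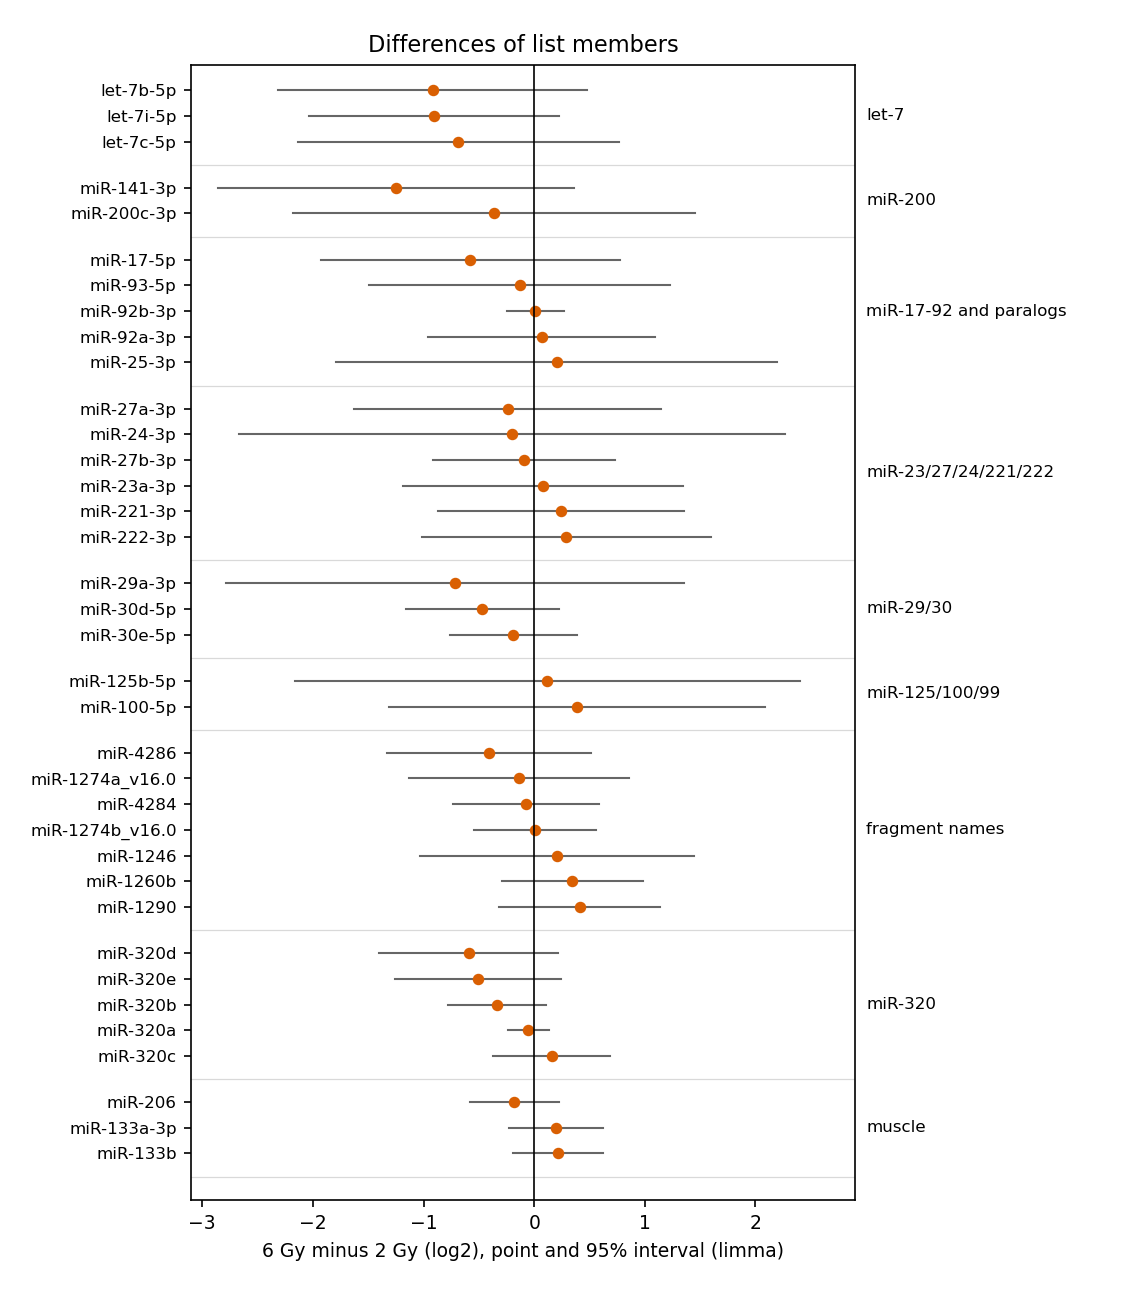
Difference 6 Gy minus 2 Gy (log2, point) with the 95% interval of the limma fit (line) for all tested members of 9 lists. All intervals include 0, and among the widest are those of miR-24-3p, miR-125b-5p, miR-29a-3p, miR-25-3p and miR-200c-3p.

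Several names on the array are now read as pieces of tRNA, U2 snRNA or other non-coding RNA, and 7 of 9 listed ones were tested. Their differences lay above 0 for 4 and below for 3, the median was 0.004 and turned to -0.01 with scaling over all probes, and 0 passed. miR-1280_v18.0, also such a name, was tested outside the list and differed by -0.04. miR-1246, a U2 snRNA fragment often seen in vesicles, read -1.39, -0.03, -1.13 and -1.54 at 2 Gy and -1.12, -0.42, 0.61 and -2.34 at 6 Gy, a difference of 0.21 ± 0.58. Its highest and lowest values were both at 6 Gy, and the difference was 0.71 without culture 4 and -0.27 without culture 3 at 6 Gy. miR-1290, another such name, read -3.97, -3.39, -3.80 and -4.0 at 2 Gy and -3.21, -3.34, -2.61 and -4.35 at 6 Gy, a difference of 0.41 ± 0.34 (0.74 without culture 4 at 6 Gy, 0.16 without culture 3). miR-1260b read between -3.68 and -3.55 at 2 Gy and -2.82, -3.05, -3.31 and -3.89 at 6 Gy. Cultures 1 to 3 at 6 Gy lay above all 4 at 2 Gy and culture 4 below them, and the difference was 0.35 ± 0.30, or 0.55 without culture 4. miR-4286 had a difference of -0.41 ± 0.43, or -0.06 without culture 4 at 6 Gy.

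All 5 members of the miR-320 family, whose first member miR-320a is made without DROSHA, were tested. 1 difference lay above 0 and 4 below, with a median of -0.33, and 0 passed. miR-320d read -0.45, 0.51, -0.60 and -0.53 at 2 Gy and -0.91, -0.10, -0.64 and -1.80 at 6 Gy, a difference of -0.59 ± 0.38. miR-320e followed the same order of cultures, with -1.05, -0.07, -1.13 and -1.11 at 2 Gy and -1.37, -0.66, -1.14 and -2.22 at 6 Gy, a difference of -0.51 ± 0.35. miR-320b differed by -0.33 ± 0.21. miR-320c was the one above 0, at 0.16 ± 0.25, and read 4.70 in culture 4 at 6 Gy, where miR-320b, miR-320d and miR-320e had their lowest values. Without culture 2 at 2 Gy and culture 4 at 6 Gy the median of the family was -0.03, with -0.02 for miR-320d and 0.04 for miR-320e.

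GC-rich or purine-rich miRNAs, many of which give bright signal on this type of array, numbered 28, all tested. Some members, among them miR-149-3p, miR-663b and miR-1234-3p, were dim here. Their differences lay above 0 for 17 and below for 11, with a median of 0.03 that turned to -0.02 with quantile normalization, and 0 passed. Without culture 2 at 2 Gy the median was -0.01. In the list 4 had an unadjusted p under 0.05, against 14 of all 283 (4.95%). For 25 of the 28 the interval lay within 1 on either side of 0. miR-630 read 2.37, 1.61, 2.76 and 2.43 at 2 Gy and 2.96, 2.63, 3.14 and 2.98 at 6 Gy. Only the value of culture 3 at 2 Gy overlapped the 6 Gy range, and the difference was 0.63 ± 0.22, a ratio of 1.55 (from 1.13 to 2.14, limma adjusted p = 0.492). It was 0.41 without culture 2 at 2 Gy. miR-3195 read 2.01, 1.50, 2.18 and 2.08 at 2 Gy and 2.34, 2.07, 2.31 and 2.60 at 6 Gy, a difference of 0.39 ± 0.19, or 0.24 without culture 2 at 2 Gy. miR-663b had the lowest difference of the list. It read -2.88, -3.15, -3.01 and -2.92 at 2 Gy and -3.0, -3.36, -3.50 and -3.99 at 6 Gy, which gave -0.47 ± 0.29, or -0.30 without culture 4 at 6 Gy. Unlike the let-7 members, culture 2 at 2 Gy was the lowest of its dose for miR-630, miR-3195 and miR-663b.

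The chromosome 19 cluster and the miR-371-373 cluster, active in placenta and embryonic cells, had 4 tested members of 11, with 1 difference above 0, 3 below and a median of -0.24, and 0 passed. miR-371a-5p read 0.91, 0.55, 0.86 and 0.78 at 2 Gy and 0.58, 0.42, 0.35 and 0.46 at 6 Gy. Only culture 2 at 2 Gy lay within the 6 Gy range, and the difference was -0.32 ± 0.15. miR-516a-5p read -2.30, -2.54, -2.33 and -2.13 at 2 Gy and -2.93, -2.58, -3.03 and -2.06 at 6 Gy, a difference of -0.32 ± 0.21 that was -0.52 without culture 4 at 6 Gy. miR-373-5p differed by -0.15 ± 0.13 and miR-498 by 0.11 ± 0.13.

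The smallest p-value was that of miR-877-3p, which is processed by splicing from an intron rather than by DROSHA. It read -3.96, -3.98, -3.90 and -3.93 at 2 Gy and -3.47, -3.61, -3.48 and -3.29 at 6 Gy. All 4 values at 6 Gy lay above all 4 at 2 Gy, and the difference was 0.48 ± 0.12. This is a ratio of 1.39 (from 1.17 to 1.66; limma adjusted p = 0.311). It was 0.10 when the background was corrected with normexp on the median intensities. That setting adds 50 to every signal, which draws the differences of dim miRNAs toward 0. miR-3161 read -4.54, -4.40, -4.60 and -4.59 at 2 Gy, next to the floor, and -4.27, -4.26, -4.25 and -4.21 at 6 Gy, a difference of 0.29 ± 0.08 (adjusted p = 0.354). With normexp it was 0.04. miR-3181 read -3.36, -3.37, -3.64 and -3.40 at 2 Gy and -3.96, -3.68, -3.73 and -3.78 at 6 Gy. All 4 of its 6 Gy values lay below the 2 Gy values, with a difference of -0.34 ± 0.10 (adjusted p = 0.354).

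miR-149-3p, the GC-rich arm of its precursor, read -2.37, -2.71, -2.41 and -2.44 at 2 Gy and -2.92, -2.87, -2.90 and -2.68 at 6 Gy. Culture 2 at 2 Gy lay just below culture 4 at 6 Gy, so the groups overlapped by these 2 arrays, and the difference was -0.36 ± 0.12 (adjusted p = 0.492). miR-2861 read 3.18, 2.77, 3.19 and 3.13 at 2 Gy and 3.45, 3.27, 3.42 and 3.43 at 6 Gy, a difference of 0.32 ± 0.11 (adjusted p = 0.492). miR-874-3p read -2.20, -2.27, -2.18 and -2.13 at 2 Gy and -1.87, -2.03, -2.01 and -1.99 at 6 Gy, a difference of 0.22 ± 0.08 (adjusted p = 0.492). Both sets of 6 Gy values lay above those at 2 Gy. miR-548q read -2.65, -3.03, -2.76 and -2.81 at 2 Gy and -1.90, -2.53, -2.45 and -2.19 at 6 Gy, again without overlap, with a difference of 0.55 ± 0.23 (adjusted p = 0.839). Also among the 10 smallest p-values were miR-769-3p (0.22 ± 0.08, adjusted p = 0.780) and miR-3605-5p (-0.33 ± 0.13, adjusted p = 0.839).

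**Figure D5:**
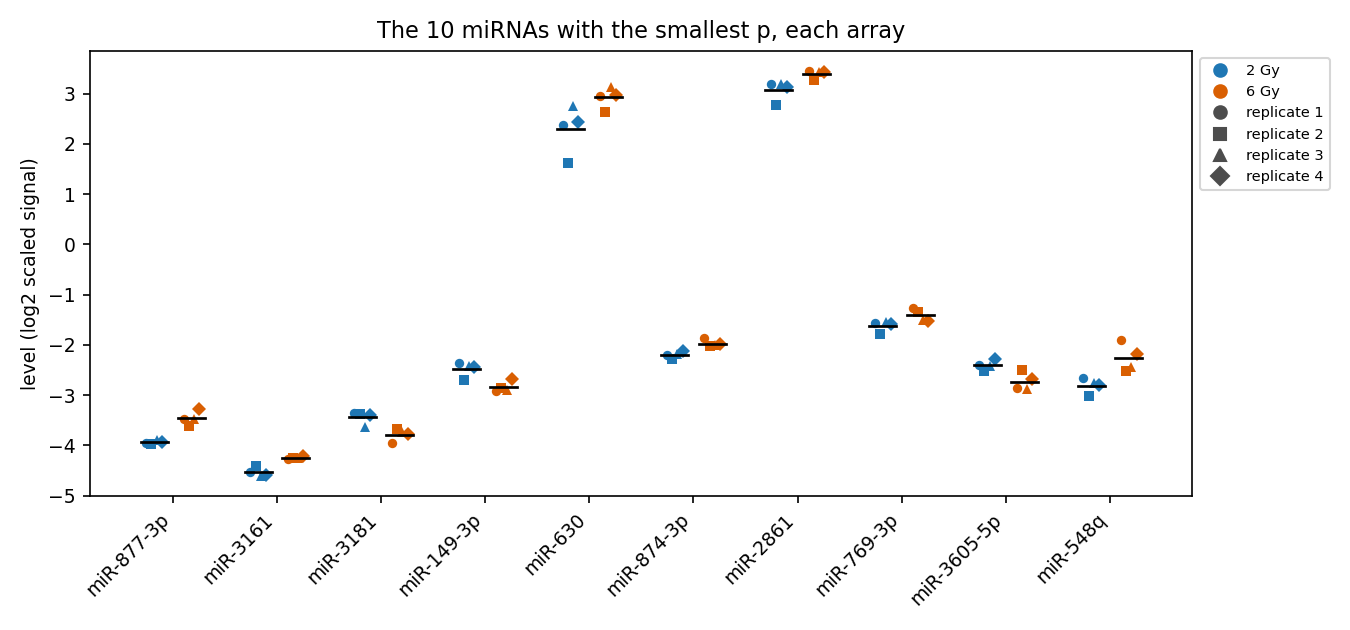
Log2 scaled level on each array at 2 Gy (blue) and 6 Gy (orange) of the 10 miRNAs with the smallest limma p, by replicate (marker), with the mean of 4 as a bar. The doses do not overlap for miR-877-3p, miR-3161, miR-3181, miR-874-3p, miR-2861, miR-769-3p and miR-548q, and none of the 10 passes after adjustment.

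Groups that did not overlap at all numbered 12 of 283 (4.24%), with 6 Gy above in 9 (3.18%) and below in 3 (1.06%). The 9 were miR-877-3p, miR-3161, miR-874-3p, miR-2861, miR-769-3p, miR-548q, miR-125a-3p, miR-2276-3p and miR-3610, and the 3 were miR-3181, miR-877-5p and miR-186-3p. miR-125a-3p, miR-2276-3p, miR-3610, miR-877-5p and miR-186-3p are named after their values were seen. Other large positive differences came from miR-186-5p (0.64 ± 0.34), miR-3667-5p (0.48 ± 0.26), miR-1229-3p (0.40 ± 0.19) and miR-3646 (0.36 ± 0.18), of which 0 passed.

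Of 15 precursors with both arms tested, 10 had differences of opposite sign in their 5p and 3p arms. The arms of miR-877 differed by -0.15 (5p, unadjusted p = 0.0954) and 0.48 (3p, 0.0011), so that 1 arm lay wholly below and the other wholly above the 2 Gy values. Those of miR-149 differed by 0.20 (5p) and -0.36 (3p), and those of miR-186 by 0.64 (5p) and -0.33 (3p). For let-7b the 5p arm differed by -0.92 and the 3p arm by 0.05. Arms were paired by name, and the difference between arms was not tested.

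Against 0 Gy, in the same fit, 36 miRNAs passed at 2 Gy (12.7% of 283), of which 17 were higher (6.01%) and 19 lower (6.71%). At 6 Gy 55 passed (19.4%), of which 17 were higher (6.01%) and 38 lower (13.4%). These comparisons share the 0 Gy arrays, so their values are given side by side, and the difference between the doses is the 6 against 2 Gy comparison itself. Both doses called 23 miRNAs, 2 Gy alone 13 and 6 Gy alone 32. Among those 45 called at 1 dose, the smallest unadjusted p of 6 against 2 Gy was 0.00259, 6 were under 0.05 (against 14 of all 283, 4.95%) and 0 passed after adjustment, so for none of them was a difference between 6 and 2 Gy shown. These 45 were picked with the same 2 and 6 Gy arrays, so their count of 6 supports nothing. let-7b-5p had a difference of -1.32 at 2 Gy (adjusted p = 0.157) and of -2.24 at 6 Gy (0.0407). let-7i-5p had -1.01 at 2 Gy (adjusted p = 0.173) and -1.92 at 6 Gy (0.0353), miR-210-3p -1.53 (0.112) and -2.29 (0.0374), and miR-29a-3p -2.48 (0.0940) and -3.20 (0.0407). In the other direction, miR-149-3p had 0.63 at 2 Gy (adjusted p = 0.0190) and 0.27 at 6 Gy (0.0964), miR-3181 0.44 (0.0190) and 0.09 (0.446), miR-3605-5p 0.64 (0.0190) and 0.31 (0.0911), and miR-371a-5p 0.58 (0.0283) and 0.26 (0.193). miR-3161 had 0.01 (0.883) and 0.30 (0.0341), miR-769-3p 0.17 (0.154) and 0.39 (0.0304), miR-3195 0.23 (0.378) and 0.62 (0.0407), and miR-1254 0.15 (0.398) and 0.39 (0.0482). miR-574-5p had -0.34 (0.154) and -0.69 (0.0304), and miR-663a -0.09 (0.602) and -0.38 (0.0432). The direct differences of miR-574-5p (-0.35 ± 0.16), miR-663a (-0.29 ± 0.12) and miR-1254 (0.24 ± 0.13) each had an adjusted p of 0.839. A miRNA let in by the filter through 0 Gy alone is one that was high there, which favours a lower call. The counts of lower calls therefore do not measure a direction of change. Among those called at both doses, miR-21-5p had -2.79 at 2 Gy and -2.72 at 6 Gy, and miR-125b-5p had -3.53 and -3.41. Neither was detected on every array at 2 or at 6 Gy, so both were tested only through their detection at 0 or 10 Gy. Both lay at the floor on 3 arrays at 2 Gy and on 2 at 6 Gy, and their direct differences had intervals from -1.35 to 1.49 and from -2.16 to 2.40, so they are not shown to be level.

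Markers of other cells were few and did not pass the test. Of 6 red blood cell miRNAs only miR-486-5p was tested, with -3.59 ± 0.10 at 2 Gy and -3.53 ± 0.24 at 6 Gy (SD, n = 4 each). Of 7 white blood cell and platelet miRNAs only miR-155-5p was tested, with -2.79 ± 0.11 and -2.68 ± 0.14 (SD, n = 4 each) and a difference of 0.12 ± 0.09. Of the 3 liver miRNAs that serum carries, 0 were tested. The muscle miRNAs miR-133a-3p (0.20 ± 0.20), miR-133b (0.21 ± 0.19) and miR-206 (-0.18 ± 0.19) lay close to the floor, their mean level running from -4.20 to -3.65 over the 8 arrays, and 0 of the 3 passed. In the culture medium, fewer cells, less miRNA released per cell and loss after release cannot be told apart.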

How the data were processed

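The deposited intensities are the processed signals of Agilent Feature Extraction 11.5.1.1, which had subtracted the background without scaling arrays to each other, per the file headers. Spots of a probe were averaged without controls and spots flagged as outliers. A probe was called detected on an array if a share over 0.5 of its spots stood well above background there. Each array was divided by its 75th percentile over the 518 probes detected on all 16 arrays, floored at 0.0412 (log2 -4.60), and log2 was taken. Probes that passed the filter were averaged per miRNA. In all, 6.14% of values on the 8 arrays lay at the floor. Levels of different miRNAs cannot be compared.

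The fit used limma 3.58.1 (R 4.3.3, lmFit and eBayes, a mean per dose over 16 arrays), with Benjamini-Hochberg adjustment over 283 miRNAs. The scripts were tested on simulated data. Named are the 10 smallest p-values, the 10 largest differences each way, 10 miRNAs called against 0 Gy at 1 dose only, the 5 brightest, the 5 narrowest intervals, and list members (all of 4 or fewer, otherwise the 4 largest). The members and lists were chosen with earlier results of these data known. Family lists held chosen arms, and other tested arms, such as miR-18b-3p and miR-23a-5p, are not counted in them. Array names are given without the prefix hsa-. Precision is limited by the number of arrays.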

Additional observations from a re-analysis of the deposited data

Results flagged for a closer look

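In 30 of 146 sets of 4 arrays (20.5%), 1 array stood apart from the other 3 by Dixon's criterion. Chance meets it in about 1 set in 20, and the miRNAs of 1 array do not meet it independently. Where the other 3 values lay at the floor, any value above it met the criterion, so that rate does not apply. At 2 Gy this was so for miR-100-5p, miR-221-3p, miR-24-3p, miR-30e-5p, miR-125b-5p, miR-21-5p and miR-31-5p. For miR-25-3p the other 3 lay at or next to the floor. Culture 2 at 2 Gy accounted for 23 of them. It was the high one for let-7i-5p (-2.08), let-7c-5p (-1.25), let-7b-5p (0.382), miR-17-5p (-1.04), miR-93-5p (-1.55), miR-25-3p (-1.33), miR-200c-3p (-1.22), miR-210-3p (-1.17), miR-320d (0.506), miR-320e (-0.0713) and miR-186-5p (-3.83). It was also the high one for miR-221-3p (-3.30), miR-222-3p (-1.37), miR-24-3p (-0.570), miR-30e-5p (-3.85), miR-100-5p (-1.96), miR-125b-5p (-1.01), miR-21-5p (-2.64), miR-31-5p (-2.28), miR-183-5p (-2.57) and miR-34a-5p (-1.86). It was the low one for the bright miR-2861 (2.77) and miR-1225-5p (4.70).

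Culture 3 at 2 Gy was low for miR-3181 (-3.64) and miR-1254 (-4.38). Culture 2 at 6 Gy was high for let-7i-5p (-2.93), miR-183-5p (-2.75) and miR-34a-5p (-2.49) and low for miR-2861 (3.27). Culture 1 at 6 Gy was low for miR-155-5p (-2.88). Culture 4 at 6 Gy did not stand apart by this criterion in any set.

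Probes for viral miRNAs, of which 36 miRNAs were tested on their own, gave signals in cells with no stated infection. Against 0 Gy, limma called 1 at 2 Gy (2.78%), which was higher, and 3 at 6 Gy (8.33%), of which 2 were higher and 1 lower, while among the 283 human miRNAs 12.7% and 19.4% were called. Between 6 and 2 Gy 0 were called by limma, with 4 at an unadjusted p under 0.05 (11.1%, against 4.95% of the human miRNAs).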

How the results depend on the processing

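Of 35 alternatives, 32 gave 0 calls, among them every fit with 1 array left out (0 to 0). The 14 under an unadjusted p of 0.05 fell to 2 with no scaling, 6 with normexp and 8 with scaling over all probes or without 2 Gy replicate 4. Leaving out culture 2 at 6 Gy gave 22, leaving out culture 3 at 0 Gy gave 23 and leaving out culture 4 at 6 Gy gave 28. Dropping culture 2 at 2 Gy and culture 4 at 6 Gy together gave 38, a covariate for the labelling spike-in gave 30 and array weights gave 67. Array weights gave 3 calls (miR-877-3p and miR-3161 higher, miR-149-3p lower at -0.46), although the weights had not converged, and the labelling spike-in as a covariate gave 1 (miR-149-3p, -0.42, adjusted p = 0.0199). The labels do not say whether replicate numbers pair the samples. Deviations from the dose means of same-numbered samples correlated at 0.31, 0.85, -0.43 and 0.68, and 2 of 4 correlated best with their own number. These correlations do not settle the pairing, and the main fit left it out. With the replicate block there were 0 calls on 16 arrays (22 unadjusted) and, with 32 unadjusted, 1 on the 8 arrays alone (let-7i-5p, -1.01, adjusted p = 0.0189). With 1 array left out, the difference in detected miRNAs ran from -16.8 to 11.8, in unscaled level from 0.0063 to 0.358, in labelling spike-in from -2.05 to 0.058 and in hybridisation spike-in from 0.029 to 0.285. Of 69 named miRNAs, 47 had a value under all 35 alternatives, and 26 of these kept their sign under all of them. Normexp used median intensities and an offset of 50, which draws the differences of dim miRNAs toward 0. The 6.14% of values at the floor limit what dim miRNAs can show.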
